A study of Arabidopsis thaliana with 12 samples.

Results

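The genes described here are 5 nuclear genes for proteins of the plastid ribosome and 1 gene for an enzyme of the kind that methylates ribosomal protein L11. They were found as probes whose platform annotation gives a single gene, that gene being one of the 6 loci. Each locus had 1 such probe, so 6 of the 3439 probes of the array, and 6 of the 692 probes with 1 gene, are the subject. The set was chosen by an earlier analysis of the same samples and the same contrast, in which AT5G53920 was among the genes that rose and the ribosomal proteins were a list whose members were not called. The values of the 6 genes are therefore given as a description, and their differences support nothing beyond that.

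RNA was measured in 12 samples of total RNA from *Arabidopsis thaliana* of the Landsberg ecotype. There were 6 samples of dark-adapted wild type, labelled WT_D, and 6 of the mutant laf6, labelled laf6_L_1h, which was first dark adapted and then given 1 h of normal light. The mutant lacks atABC1, called a transporter in the labels and known in plastids as SUFB, a scaffold of iron-sulphur cluster assembly. Genotype and light changed together, so their effects cannot be told apart, and neither the tissue nor the age of the plants is given in the labels. The labels do not say that the numbered samples came from separate plants, so any spread between them may be technical.

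Plastid ribosomes are of the bacterial type and translate the proteins that the plastid genome encodes, many of them subunits of the photosynthetic complexes. Most of their own proteins are encoded in the nucleus, made in the cytosol and imported. S6 (AT1G64510) and S10 (AT3G13120) belong to the small subunit, which holds the messenger RNA, and L5 (AT4G01310), L17 (AT3G54210) and L34 (AT1G29070) to the large subunit, which joins the amino acids. AT5G53920 is annotated as like a ribosomal protein L11 methyltransferase. In *Escherichia coli* the enzyme of this kind, PrmA, adds methyl groups to L11, a protein of the stalk base of the large subunit, and the *Arabidopsis* protein is known to be sent to both plastids and mitochondria.

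The deposited values are linear intensities of array spots that run from 0 to a ceiling of 100, and between 13.0% and 19.3% of a sample's values were 0. The median of a wild type sample ranged from 0.218 to 0.289 and that of a laf6 sample from 0.161 to 0.170, so laf6 samples were dimmer as deposited. The median log2 difference of all probes, laf6 minus wild type, was -0.54 as deposited and -0.08 after quantile normalisation. Samples with consecutive numbers (1 and 2, 3 and 4, 5 and 6) were averaged as if they were 2 readings of 1 RNA, which gave 3 replicates per group. The labels do not say that they are, and the correlations behind that choice were as low as 0.02, yet every n, SE and p rests on it. With the 12 samples unaveraged, limma called 774 probes in place of 335, and AT5G53920 had an adjusted p of 2.6e-05. No probe with 1 gene measured SUFB, so the mutation could not be checked in the RNA, and none measured the 19 leaf, root and seed marker genes drawn up for the tissue. A level in these bulk samples cannot tell fewer cells with the RNA from less RNA per cell.

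AT5G53920, the methyltransferase gene, stood at a higher level in every illuminated laf6 sample than in any wild type sample. Its deposited intensity in the wild type samples numbered 1 to 6 was 0.617, 0.646, 0.535, 0.436, 0.404 and 0.348. In laf6 it was 1.57, 1.36, 1.93, 1.90, 1.21 and 1.01. The lowest laf6 value thus lay above the highest wild type value, and the groups did not overlap, either as deposited or after normalisation. Over all probes, 4.54% did the same as deposited and 7.97% after normalisation. The mean intensity was 0.498 ± 0.128 for wild type against 1.496 ± 0.405 for laf6 (SD, n = 3 averaged replicates each), a ratio of 3.005.

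Samples of the same number and consecutive samples show how AT5G53920 varied below the level of the groups. Within the 6 pairs of consecutive readings the higher reading was 1.02 to 1.23 times the lower one, a spread that may be technical only. Between samples of the same number, laf6 was 2.10 to 4.36 times wild type, and it was higher in 6 of 6 such pairs. The ratio was largest for numbers 3 and 4, where laf6 was at its highest. Numbers 5 and 6 were the lowest of both groups, so their ratios, 2.999 and 2.89, fell inside the range of the others.

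After quantile normalisation the log2 difference of AT5G53920 was 1.91 ± 0.26 (SE), a fold of 3.75, with a 95% interval from 1.23 to 2.58. As deposited the log2 difference was 1.58 ± 0.30. Measured from the median of all probes, the difference was 1.98 after normalisation and 2.12 as deposited, so it was of like size in both scalings. Among the 456 probes with 1 gene and no value at 0, its normalised difference ranked as number 4 from the top. It was the only one of the 6 genes that the limma fit over all probes called (adjusted p = 0.0228), 1 of 6 against 5.5% of all probes and 3.18% of probes with 1 gene called higher. With the replicate number as a block in limma, which leaves few degrees of freedom, its adjusted p was 0.0911. The call was also lost in 4 of the 6 fits that left out 1 averaged replicate, which were those without wild type replicates 2 and 3 and laf6 replicates 1 and 2 (adjusted p from 0.0718 to 0.0854), while the difference stayed between 1.71 and 2.13.

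**Figure D1:**
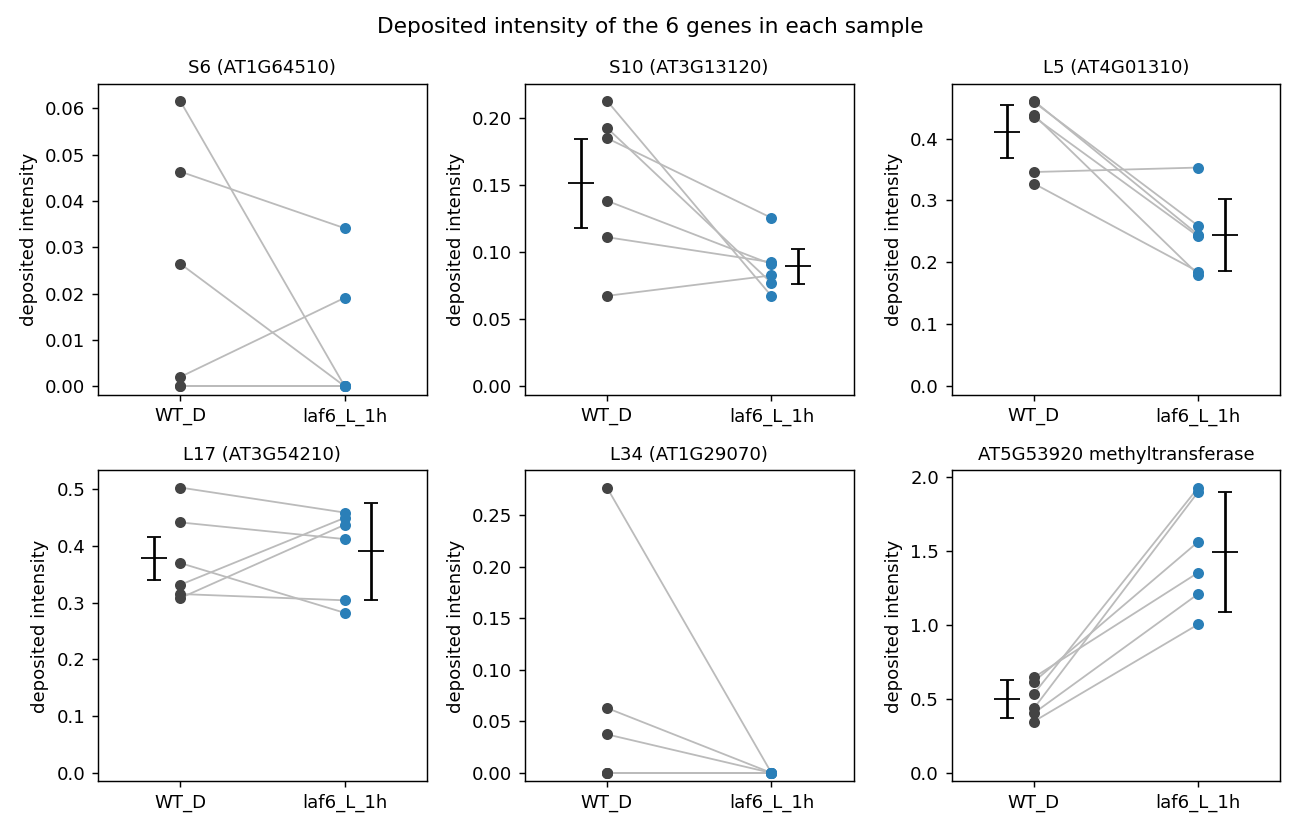
Deposited intensity (linear axis, each gene on its own scale) of the 6 genes in the 6 WT_D and 6 laf6_L_1h samples, with grey lines joining samples of the same number, and, for genes without a value at 0, the mean ± SD of 3 averaged replicates. Wild type samples of AT5G53920 lie from 0.348 to 0.646 and laf6 samples from 1.01 to 1.93, while the 5 ribosomal proteins overlap between the groups or lie at 0.

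None of the 5 ribosomal protein genes was called. Over all probes limma called 9.74% in either direction. At an unadjusted p under 0.05 limma had 1 of the 5 after normalisation, L17, against 25.9% of all probes, and 2 of the 5 as deposited, L5 and S10, against 35.6%, shares that set nothing apart at this number of genes. They were also unlike each other: as deposited the intensities of L5 and S10 were lower in most laf6 samples, that of L17 was about level, and S6 and L34 were listed at 0 in many samples. Of the 72 values of the 6 genes, 15 were listed at 0, all of them of S6 or L34.

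L5, which binds the 5S ribosomal RNA in the large subunit, had wild type intensities of 0.438, 0.327, 0.461, 0.459, 0.435 and 0.346 in samples 1 to 6. In laf6 they were 0.1802, 0.185, 0.245, 0.259, 0.242 and 0.353. The first 5 laf6 samples lay below every wild type sample, and sample 6 lay among the wild type values. The wild type mean was 0.411 ± 0.0426 and the laf6 mean 0.244 ± 0.0579 (SD, n = 3 each), so that wild type was 1.69 times as high as laf6 as deposited. Consecutive samples of L5 differed by up to 1.46 times, in laf6 samples 5 and 6.

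The log2 difference of L5 depended on the scaling in size, though not in sign. It was -0.78 ± 0.22 (SE) as deposited and -0.26 ± 0.20 after normalisation, where the 95% interval ran from -0.78 to 0.26. Measured from the median of all probes, it was -0.24 as deposited and -0.18 after normalisation. The 95% interval of the deposited difference, from -1.35 to -0.21, took in the shift of the median probe, -0.54.

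S10, a small subunit protein of the head of the particle, had wild type intensities of 0.0675, 0.213, 0.185, 0.193, 0.139 and 0.111. In laf6 they were 0.0827, 0.0673, 0.126, 0.0772, 0.0911 and 0.0926. Wild type sample 1 was as low as the lowest laf6 sample, and the groups overlapped. The means were 0.151 ± 0.0335 and 0.0894 ± 0.0134 (SD, n = 3 each), wild type being 1.69 times as high. The readings of wild type samples 1 and 2 differed by 3.16 times, which is more than that ratio.

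For S10 the log2 difference was -0.75 ± 0.21 (SE) as deposited and -0.02 ± 0.14 after normalisation, with a 95% interval from -0.38 to 0.35. Measured from the median of all probes it was -0.21 as deposited and 0.06 after normalisation, so its direction depended on the scaling. Samples of the same number gave a lower deposited value in laf6 in 5 of 6 cases for S10 and likewise in 5 of 6 for L5. The median probe was also lower as deposited, by a log2 difference of -0.54, and the same count over all probes was not made. These counts therefore set neither gene apart.

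L17, a large subunit protein near the exit of the peptide tunnel, had wild type intensities of 0.441, 0.308, 0.503, 0.331, 0.370 and 0.315. In laf6 they were 0.412, 0.437, 0.458, 0.449, 0.282 and 0.304. Samples 1 to 4 of laf6 were close to each other and samples 5 and 6 were lower, and all of them fell within or just under the wild type range. The means were 0.378 ± 0.0374 and 0.390 ± 0.0856 (SD, n = 3 each). Consecutive samples differed by up to 1.52 times, against a ratio of the means of 1.03.

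The log2 difference of L17 was 0.03 ± 0.21 (SE) as deposited and 0.47 ± 0.18 after normalisation, with a 95% interval from 0.01 to 0.94. Measured from the median of all probes, it was 0.57 as deposited and 0.55 after normalisation. A deposited level that stayed about equal while the median probe was dimmer in laf6 thus appears as a positive normalised difference. It was not called over all probes.

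S6, a small subunit protein of the platform, was at or near the lower end of the scale. Its wild type intensities were 0.0463, 0.0616, 0.0265, 0, 0.00197 and 0. In laf6 they were 0.0341, 0, 0, 0, 0.0191 and 0. Of the 6 samples of a group, 2 of wild type and 4 of laf6 were listed at 0, and the values above 0 overlapped. The floor set for values at 0 decides the fitted difference of such a probe, and none is given.

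L34, a small protein of the large subunit, was listed at 0 in all 6 laf6 samples and in 3 of the 6 wild type samples. The other 3 wild type samples, numbered 3, 5 and 6, had 0.277, 0.0374 and 0.0630. The highest of these stood alone, and its consecutive reading, wild type sample 4, was at 0. Over the array, 96 probes (2.79%) were at 0 in every laf6 sample and above 0 in some wild type sample, and 60 (1.74%) showed the opposite. No fold is given for L34.

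**Figure D2:**
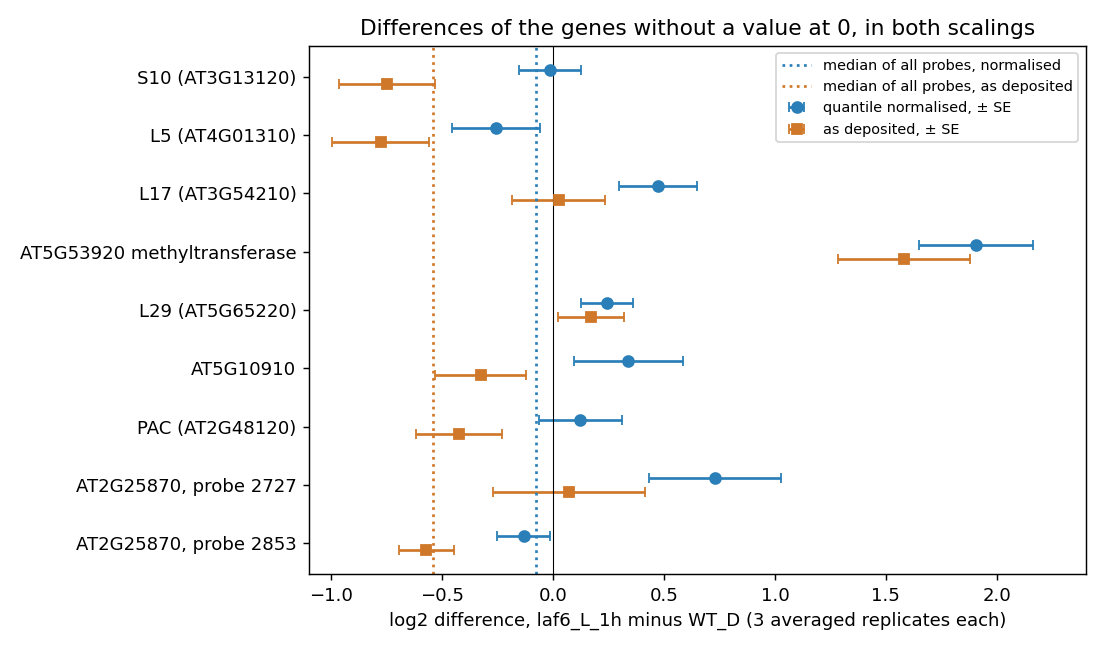
Log2 difference, laf6_L_1h minus WT_D, with its SE (3 averaged replicates per group) for the 4 genes of the set and the 5 further probes of plastid ribosome genes that have no value at 0, after quantile normalisation (circles) and as deposited (squares), with the median of all 3439 probes in each scaling as dotted lines. AT5G53920, at 1.91 and 1.58, stands apart from the others, which lie between -0.78 and 0.73, and S10 moves from -0.75 to -0.02 with the scaling.

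Ratios between genes of the same sample do not depend on how a sample was scaled by a single factor. Their size has no meaning of its own, since probes differ in yield, but their change between groups does. The ratio of L5 to AT5G53920 was 0.864 ± 0.228 for wild type against 0.175 ± 0.0809 for laf6 (SD, n = 3 each), 4.94 times as high in wild type. For S10 to AT5G53920 the ratios were 0.315 ± 0.0850 and 0.0624 ± 0.0177, a change of 5.04 times, and for L17 to AT5G53920 they were 0.787 ± 0.170 and 0.264 ± 0.0269, a change of 2.98 times. None of these 3 ratios overlapped between the groups over the 6 samples. The same held for 86.2% of the other probes with 1 gene and no value at 0 when set against AT5G53920, so the separation was not particular to ribosomal proteins. The size of the 3 changes likewise takes in the rise of AT5G53920, whose deposited log2 difference lay 2.12 above the median of all probes. Measured from that median, L5, S10 and L17 lay at -0.24, -0.21 and 0.57.

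Among the ribosomal proteins themselves the ratios changed less. S10 to L5 was 0.366 ± 0.0456 for wild type against 0.374 ± 0.0569 for laf6. For these 2 genes, of different subunits, the group means of the ratio differed by less than the spread between replicates. The ratio was not steady over single samples. It ran from 0.154 in sample 1 to 0.651 in sample 2 of wild type, and from 0.262 to 0.514 in laf6. L5 to L17 was 1.09 ± 0.0604 for wild type against 0.667 ± 0.308 for laf6, and S10 to L17 was 0.398 ± 0.0487 and 0.238 ± 0.0695. The ratio of L5 to L17 in laf6 was 0.438, 0.423, 0.533 and 0.577 in samples 1 to 4 and 0.858 and 1.16 in samples 5 and 6. Only samples 5 and 6 of laf6 came near the wild type values, which lay between 0.917 and 1.39.

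**Figure D3:**
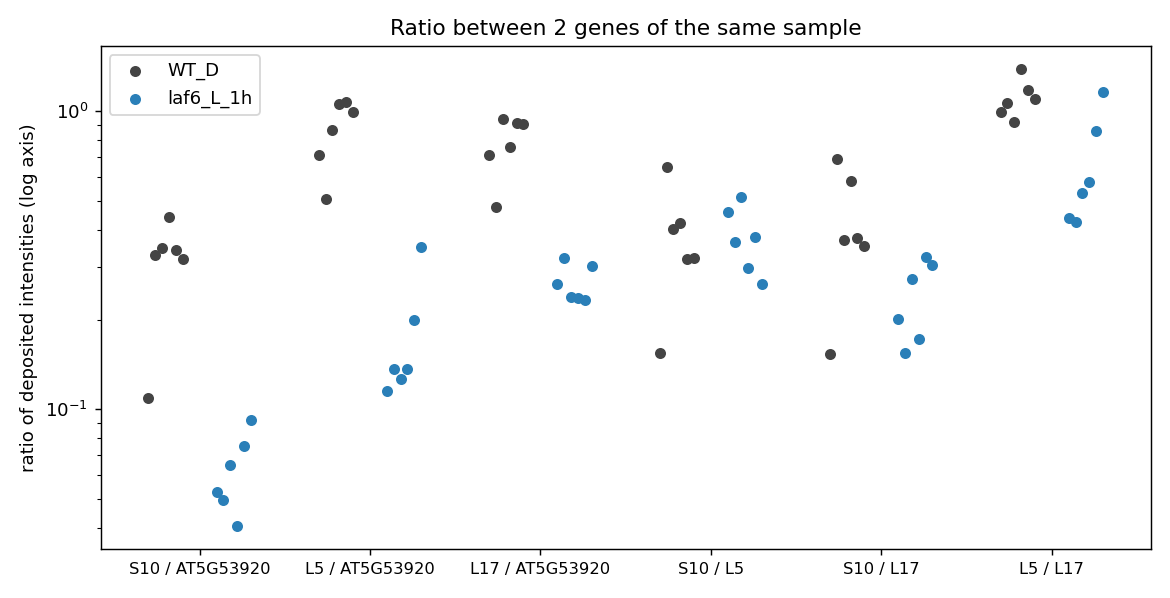
Ratio of the deposited intensities of 2 genes in the same sample (log axis) for the 4 genes without a value at 0, with 1 point for each of the 6 WT_D and 6 laf6_L_1h samples. The 3 ratios with AT5G53920 as the denominator separate the groups, with L5 / AT5G53920 from 0.506 to 1.08 in wild type and from 0.115 to 0.351 in laf6, while the 3 ratios between ribosomal proteins overlap.

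Other genes of the plastid ribosome were few among the probes with 1 gene. Probes with several genes were not used, though 3 of them held a locus of a plastid translation factor. A further 1 held a locus for assembly or modification of the plastid ribosome. Of 41 nuclear loci of plastid ribosomal proteins, 6 had a probe with 1 gene, the 5 above and L29 (AT5G65220). Of 19 loci for assembly or modification of the plastid ribosome, 4 had one, AT5G53920 and 3 others. None of the 26 loci of the plastid genome for ribosomal proteins and none of the 11 loci of plastid translation factors had one. Limma called 0 of the 5 probes of these 4 further loci over all probes, against 9.74% of the array. At an unadjusted p under 0.05 there were 0 of the 5 after normalisation, against 25.9% of all probes, and 1 as deposited, against 35.6%. The median log2 difference of the 4 probes for assembly and modification other than AT5G53920, which measure 3 loci, was 0.23 after normalisation. The median over all probes was -0.08. As deposited the differences of the 4 probes were -0.33, -0.42, 0.07 and -0.57, beside -0.54 over all probes. Without normalisation limma called 1 of the list probes, a probe of AT2G25870 described below, and 476 over the array.

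L29, a large subunit protein near the tunnel exit, had wild type intensities of 2.81, 2.76, 2.56, 2.30, 2.15 and 1.91 and laf6 intensities of 2.81, 2.92, 2.44, 2.66, 2.79 and 2.56. The groups overlapped. The wild type mean of L29 was 2.41 ± 0.379 and its laf6 mean 2.70 ± 0.159 (SD, n = 3 each), and its log2 difference was 0.24 ± 0.12 (SE) after normalisation and 0.17 ± 0.15 as deposited. L29 thus had no lower deposited mean in laf6, as was also so for L17, another protein of the large subunit, whereas L5 of that subunit did. Measured from the median of all probes, the difference of L29 was 0.71 as deposited and 0.32 after normalisation. For L17 it was 0.57 and 0.55, and for L5, nearer to that median, -0.24 and -0.18.

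PAC (AT2G48120), the PALE CRESS protein, which binds plastid 23S ribosomal RNA, had a wild type mean of 0.299 ± 0.0511 against 0.223 ± 0.0365 for laf6. Its log2 difference was 0.12 ± 0.19 after normalisation and -0.42 ± 0.19 as deposited. AT5G10910, an RNA methyltransferase of the MraW kind that acts on plastid 16S ribosomal RNA, had 0.183 ± 0.0345 and 0.145 ± 0.0257, with differences of 0.34 ± 0.25 and -0.33 ± 0.20. The signs of both turned with the scaling. The groups of this second methyltransferase gene overlapped in both scalings, unlike those of AT5G53920. Over all probes, only 4.54% separated with laf6 higher as deposited and 7.97% after normalisation, so this overlap does not set AT5G10910 apart.

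AT2G25870, which holds a YbeY-type endoribonuclease of plastid ribosomal RNA processing, had 2 probes that disagreed. For probe 2727 the log2 difference was 0.73 ± 0.30 when normalised and 0.07 ± 0.34 as deposited, with overlapping groups. Probe 2853 had a wild type mean of 0.580 ± 0.0659 against 0.389 ± 0.0270 for laf6, with differences of -0.13 ± 0.12 when normalised and -0.57 ± 0.12 as deposited. The deposited values of probe 2853 did not overlap between the groups, wild type being higher. How many of all probes separated in this direction was not counted. Measured from the median of all probes, its difference was -0.03 as deposited and -0.06 after normalisation. Limma called it without normalisation only (adjusted p = 0.0496), where 476 of the 3439 probes were called, 362 of them lower in laf6.

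The genes whose profile over the 12 samples was closest to that of AT5G53920 were found by the root mean square difference of normalised log2 values, each gene centred on its own mean, among 453 other named probes with 1 gene and no value at 0. The 5 closest were AT5G19210, a DEAD-box RNA helicase, at 0.30, PRK, the phosphoribulokinase of the Calvin cycle, at 0.32, AT1G32730 at 0.38, AT1G69910, a receptor-like kinase, at 0.42, and AT3G25410, at 0.44. The median over the 453 probes was 1.16. The measure takes in the gap between the groups, and 4 of the 5 were called higher by limma over all probes, with AT3G25410 not called. With the replicate number as a block, limma called none of these 4 (adjusted p from 0.0690 to 0.0943). Over the whole array that fit called 3 probes higher and 9 lower, so the loss does not set these genes apart. The wild type mean of PRK was 0.668 ± 0.186 and its laf6 mean 2.08 ± 0.244, and those of AT5G19210 were 0.496 ± 0.1004 and 1.24 ± 0.161 (SD, n = 3 each).

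**Figure D4:**
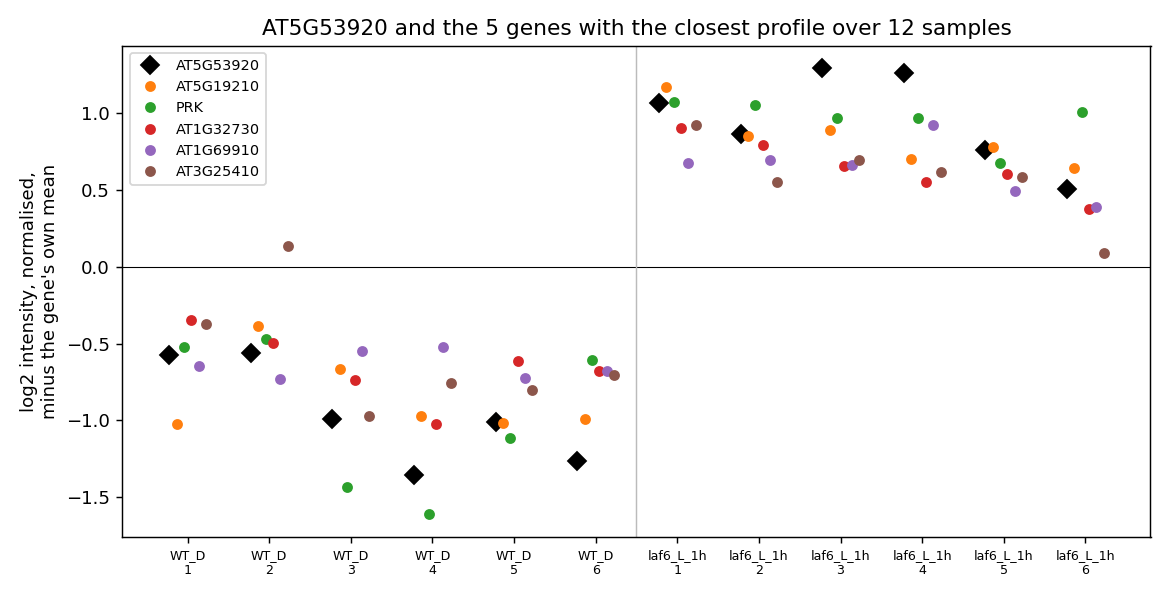
Normalised log2 intensity minus the gene's own mean over the 12 samples, for AT5G53920 (diamonds) and the 5 genes with the closest profile (circles), in the 6 WT_D and 6 laf6_L_1h samples by number. All 6 genes lie above their mean in every laf6 sample and below it in every wild type sample, except AT3G25410 in wild type sample 2.

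By the same measure the closest gene to L5 was AT5G10920, argininosuccinate lyase of arginine synthesis, at 0.20, and the closest to L17 was AT3G26630, a pentatricopeptide repeat protein, at 0.21. The closest to S10 was AT1G50510, at 0.32. Of these, AT5G10920 and AT1G50510 had normalised log2 differences of -0.31 ± 0.21 and -0.33 ± 0.12 (SE), and AT3G26630 had 0.37 ± 0.12. None of the 3 was called. No ribosomal protein of the set was the closest to another. With 453 probes compared for each, that is the usual outcome for any gene and does not show whether they varied together.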

How the data were processed

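The deposited table holds 1 intensity per probe and sample, linear and never negative. No source used here states the background correction, scaling or ceiling that the authors applied. Probes were named through the platform annotation, and 690 of 692 probes with 1 gene matched the TAIR10.1 gene table, used for names only. No sequences or coordinates were used.

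Consecutive readings were averaged as intensities. Over 1387 probes with a mean intensity above 0.3, their deviations from the group mean correlated at 0.02 to 0.68, and those of the other pairs of a group at -0.63 to 0.17. Averaged replicates of the same number correlated across groups at 0.17 to 0.55 (0.103 to 0.184 over all probes). These lay above the limit of 0.1 set for pairing, so the numbers may pair the samples, on the values alone. The planned fit nonetheless has no block, and with one limma called 12 probes in place of 335. The planned fit gives every printed SE, interval and call, except those printed as deposited or under another named setting. Differences as deposited came from the same fit without normalisation. The blocked adjusted p is printed beside calls of the planned fit that the block ends. Zeros were set to the lowest positive value (1.33e-05) and log2 values quantile normalised, since sample medians differed by 0.85 (log2). Groups were compared with limma 3.58.1 (lmFit, eBayes) in R 4.3.3 over 3439 probes, with Benjamini-Hochberg adjustment and calls under 0.05. The fit was tested on simulated data that had the same noise level for every probe and no pairing. That test does not show how the fit does on paired samples or on probes with some values at 0.

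The members and lists were chosen with earlier results of these data known. Named were all members, every list gene with a probe of 1 gene, and the closest profiles (5 for AT5G53920, 1 for each other member without a value at 0). A planned group of other ribosomal protein genes had 0 probes, because the table's name fields named none of the measured loci so. Alternatives were other scalings, a pseudocount, a filter on dim probes, the replicate block, unaveraged samples and leaving out each replicate. The number of arrays limits the precision.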

Additional observations from a re-analysis of the deposited data

Results flagged for a closer look

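The wild type intensity of L34 (AT1G29070) in sample 3, 0.277, stood far from the other 5 samples of its group. The nearest was 0.0630, and the gap took up 0.773 of the range of the group, above Dixon's 95% limit for 6 samples. Of 21 groups examined in this way for the members and list genes, 1 was marked, and chance marks about 1 in 20. That rate is for values without a floor and need not hold here, since 3 of the 6 values of this group were listed at 0.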

How the results depend on the processing

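AT5G53920 was higher in laf6 in all 15 alternatives (log2 difference 1.58 to 2.19), and limma called it in 9. Without the samples numbered 1 and 2, chosen after seeing the data because those readings were the least close, it was not called (2.09, adjusted p = 0.128). With the replicate block and a pseudocount at the 25th percentile together it was (1.77, adjusted p = 0.0442). L5 was lower in all 15 (-0.78 to -0.08) and never called. L17 was higher in all 15 and called in 2, unaveraged (0.51, adjusted p = 0.0493) and without laf6 replicate 3 (0.65, adjusted p = 0.0433). S10 changed sign unaveraged (0.018), without numbers 1 and 2 (0.047) and when 1 replicate was left out (-0.117 to 0.072). Over the array, 189 probes were called higher and 146 lower (56.4% higher). Without normalisation there were 114 and 362 (23.9% higher), with replicates centred on medians 45 were lower (82.3% higher), with the replicate block 3 and 9, unaveraged 353 and 421, without numbers 1 and 2 21 and 30, and without 1 replicate from 59 to 114 and from 32 to 83. The last 2 settings use fewer samples. For the others the cause was not tested. The list genes had 1 call without normalisation and 0 in the other alternatives. The replicate block ended the calls of AT5G53920 and of the 4 called genes with the closest profiles, and changed no call among the other members and list genes. Levels near 0, as of S6 and L34, cannot be ranked.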
